A study of Mus musculus with 6 samples.

Results

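The T cell receptor reaches the surface only as a complex, in which the antigen-binding chains are held by the CD3 subunits and the zeta chain. This account follows 6 mouse genes of that complex through 12 array probes: Cd3e, Cd3d and Cd3g, which encode the CD3 epsilon, delta and gamma chains; Cd247, which encodes the zeta chain; Trat1, a transmembrane adaptor that associates with the receptor and zeta; and Ptcra, the pre-T-cell-receptor alpha chain. They were 6 of the 27652 gene names on the array, and their probes were 12 of 41174. Members were taken by gene name, and for Cd247 also by the probe's description and by an older name; the set was put together with differences between these same cells known, so their values are given as a description with no test.

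The cells were lines of S49, a mouse T lymphoma grown in suspension. They were MR 4-25, which the submitters describe as recovered from mannitol, a sugar alcohol that makes culture medium hyperosmotic, and Neo, the parental cells. Each line had 3 samples, labelled as untreated and grown in the same medium, and each sample was measured as total RNA on an Agilent single-dye (Cy3) array. The labels do not say whether the 3 samples of a line were separate cultures, so the spread between them may be technical, nor whether MR 4-25 is a single clone. With 1 line on each side, recovery from mannitol cannot be told apart from other differences between sublines of S49.

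In the complex, the CD3 chains and zeta carry immunoreceptor tyrosine-based activation motifs (ITAMs), tyrosines spaced in pairs that Lck phosphorylates and Zap70 then binds. Each CD3 chain has a single such motif and zeta has several, so that zeta carries much of the signalling capacity of the receptor; zeta is also the chain whose supply limits assembly and transport of the whole complex to the surface. Ptcra pairs with the beta chain in immature thymocytes, before the alpha chain is made, and normally disappears as thymocytes mature. Trat1 is known to stabilise the receptor complex at the surface of T cells.

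The values are log2 of the processed signal minus log2 of the array's 75th percentile, so that 0 is the 75th percentile of that array and 1 is 2-fold above it. Because probes bind with different strength, a level is compared between lines and never between probes. The 75th percentile lay between 844 and 988 intensity units on 5 arrays and at 521 on MR 4-25 3, where 61.3% of probes were well above background, against 69.9% to 76.2% on the other 5. MR 4-25 1 and 2 shared a slide with Neo 1 and 2 (slide 1), and MR 4-25 3 shared one with Neo 3 (slide 2), and MR 4-25 3 correlated more closely with Neo 3 (r = 0.933 across probes) than with MR 4-25 1 (0.892) or MR 4-25 2 (0.906). For that reason each difference is also given on each slide. The 10 T lymphocyte markers were well above background on all 6 arrays, and their summed level, on the linear scale of the 75th percentile, was 202 to 218 in MR 4-25 and 225 to 262 in Neo. Such a sum is carried by the brightest probes, here Thy1, at a log2 mean of 6.96 in MR 4-25 and 7.06 in Neo. The myeloid list summed to 3.49 to 4.14 in MR 4-25 and 2.25 to 2.64 in Neo, with 7 of 8 markers well above background on every array, and the B lymphocyte list to 1.09 to 1.67 in MR 4-25 and 0.836 to 1.03 in Neo, with 4 of 8. The natural killer list summed to 0.0709 to 0.267 in MR 4-25 and 0.114 to 0.272 in Neo, with 0 of 6 on every array. The fibroblast list summed to 0.964 to 1.66 in MR 4-25 and 0.670 to 1.16 in Neo, with 5 of 6. Erythroid markers summed to 0.714 to 1.05 and 0.201 to 1.04 in MR 4-25 and Neo, with 2 of 5. Epithelial markers summed to 0.181 to 0.689 and 0.102 to 0.366, with 1 of 5. The part of these levels in the results was not tested, and in bulk RNA fewer cells of a type and less RNA per cell cannot be told apart.

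Some of the 60-base probes that carry the main readings are shown first because their letters say which stretch was measured. Those for Cd3d and Cd247 fall on an ITAM, and capitals mark each tyrosine unit of the motif, a tyrosine codon followed after any 2 codons by a leucine or isoleucine codon, 21 bases apart. Among all 41174 probes, 74 (0.18%) hold such a pair. The Cd3g and Trat1 probes have none. The probes of Cd3e and Ptcra are not shown, nor is Cd247 A_52_P75298. Whether that Cd247 probe lies in an exon, an intron or an untranslated end was not determined.
Cd247 A_52_P173555: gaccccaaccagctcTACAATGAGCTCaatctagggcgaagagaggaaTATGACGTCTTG
Cd3d A_51_P285206: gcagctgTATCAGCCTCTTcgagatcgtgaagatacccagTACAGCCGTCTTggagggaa
Cd3g A_51_P260889: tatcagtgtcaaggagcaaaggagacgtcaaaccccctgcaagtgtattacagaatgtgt
Trat1 A_52_P188042: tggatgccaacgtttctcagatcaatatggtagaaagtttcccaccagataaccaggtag

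Of the 12 probes, 11 were well above background on at least 3 of the 6 arrays and entered the fit. In 6 of the 11 the 3 MR 4-25 values all lay below the 3 Neo values, in 0 they all lay above, and in 5 the lines overlapped. Among all 30965 probes kept, 14.4% lay wholly lower in MR 4-25 and 10.8% wholly higher. The members were chosen on this contrast, so nothing is read from that difference in shares. The probes wholly lower were both of Cd3e, 2 of Cd247, 1 of Trat1 and the one of Ptcra.

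**Figure D1:**
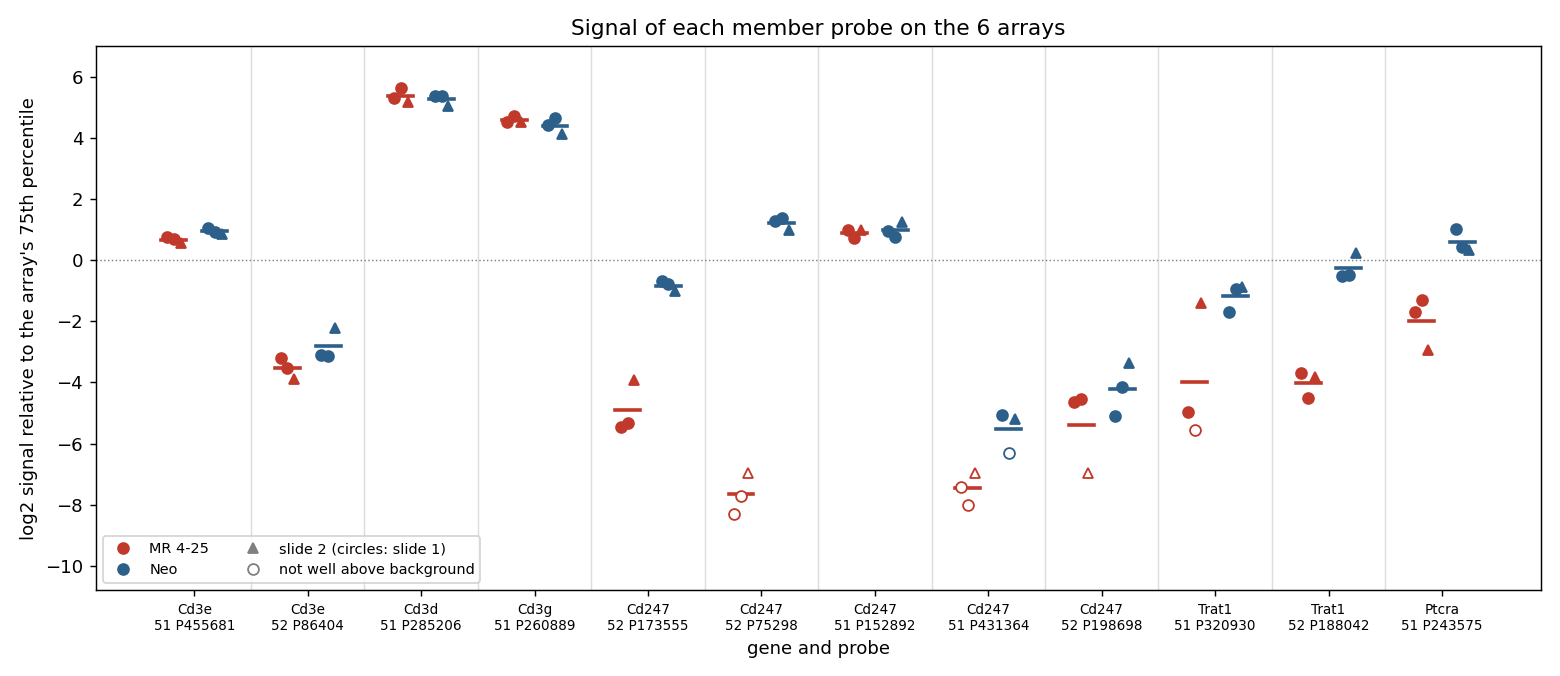
Log2 signal relative to the array's 75th percentile (vertical axis) for each of the 12 member probes (horizontal axis, probe names without their leading A_), with MR 4-25 in red at the left of each pair and Neo in blue at the right; points are arrays, bars are means of 3 arrays, triangles are slide 2 and open points were not well above background. Cd3d and Cd3g sit at the same height in both lines, whereas the MR 4-25 points of Cd247 A_52_P75298 lie at −8.32 to −6.97, against 0.99 to 1.38 in Neo.

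The delta and gamma chains of CD3 were bright in both lines and differed between them by less than the spread between samples. Cd3d, read by A_51_P285206 (mm7 chr9:44920433-44920664, plus strand), was 5.31, 5.61 and 5.15 in MR 4-25 and 5.37, 5.36 and 5.04 in Neo, which corresponds to intensities of 18549 to 44604 over the 6 arrays. The difference was 0.10 ± 0.20 on the log2 scale (MR 4-25 minus Neo, SE, n = 3 each). Cd3g, read by A_51_P260889 (mm7 chr9:44907978-44908562, minus strand), was 4.51, 4.70 and 4.50 in MR 4-25 and 4.42, 4.64 and 4.13 in Neo, a difference of 0.17 ± 0.19. Both sets of values overlapped between lines. Under normexp background correction, here with 50 intensity units added to every signal, both signs turned, to −0.10 for Cd3d and −0.11 for Cd3g. That correction also moved the median difference of all probes to 0.35, against −0.02 in the fit reported here. Both probes are mapped over more genome than their own 60 bases, 232 for Cd3d and 585 for Cd3g, so each joins parts of the transcript that are apart in the genome.

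The epsilon chain, which pairs with both delta and gamma and whose gene lies beside theirs, was slightly lower in MR 4-25. Its probe A_51_P455681 (mm7 chr9:44933516-44933575, minus strand) was 0.74, 0.68 and 0.55 in MR 4-25 and 1.05, 0.91 and 0.86 in Neo. Every MR 4-25 value was below every Neo value, by a gap of 0.12 between the nearest 2, and the difference was −0.28 ± 0.15, which is 1.22-fold. It was close on the slides, at −0.27 on slide 1 and −0.31 on slide 2. The second probe, A_52_P86404, was dim, with intensities of 35.5 to 94.0 in MR 4-25 and 95.3 to 198 in Neo. Its difference of −0.72 ± 0.34 came from −0.24 on slide 1 and −1.66 on slide 2, and it was 0.19 after normexp correction, above 0 but below the median of all probes under that correction. On the RefSeq annotation (GRCm38.p6) the 3 CD3 genes span 40092 bases of chromosome 9, and the starts of Cd3g and Cd3d, which are read in opposite directions, are 1338 bases apart.

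The zeta chain was far lower in MR 4-25 on 2 of its probes. Cd247 A_52_P173555, the ITAM probe (mm7 chr1:165827148-165828166, plus strand), was −5.45, −5.32 and −3.94 in MR 4-25 and −0.70, −0.79 and −1.03 in Neo. As intensities these were 20.0, 22.9 and 34.0 in MR 4-25 and 607, 487 and 450 in Neo, all 6 well above background. The 3 MR 4-25 samples lay far below the 3 Neo samples, with MR 4-25 3 the highest of the 3. The difference was −4.06 ± 0.44, or 16.7-fold lower in MR 4-25, with −4.63 on slide 1 and −2.91 on slide 2. It was −1.86 under normexp, where the added 50 units exceed each MR 4-25 signal of this probe. Those signals lay near the floor, so the size of the fold is uncertain. On MR 4-25 2 a Trat1 probe with an intensity of 19.2 was not well above background.

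The next probe along the gene, A_52_P75298 (mm7 chr1:165832436-165832495), was below background on all 3 MR 4-25 arrays and bright on all 3 Neo arrays. Its intensities were 2.73, 4.38 and 4.15 in MR 4-25, each a surrogate that the scanner software writes for a signal too low to use, and 2398, 2201 and 1818 in Neo. The MR 4-25 value is therefore only a bound. Set against the lowest signal among probes well above background on each MR 4-25 array, Cd247 was 174-fold lower in MR 4-25 by this probe. That size depends on the floor taken and on the background correction. Under normexp, with its offset of 50, the log2 difference was −4.14. With the surrogates taken at face value the means were −7.66 ± 0.67 in MR 4-25, which is no measured level, and 1.22 ± 0.20 in Neo (SD, n = 3 each). The first probe still gave a signal above background in MR 4-25, which this one did not.

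Of the other 3 probes at Cd247, 2 were dim in both lines, and 1, on the opposite strand, was not. A_51_P431364, which lies 10729 bases from the first probe, was well above background on 0 of 3 MR 4-25 arrays and 2 of 3 Neo arrays, with intensities of 3.57 to 5.06 in MR 4-25 and 10.7 to 29.5 in Neo, and it was not among the probes kept. Its MR 4-25 values, 2 of them surrogates, all lay below its Neo values, with a difference of −1.95 that was 0.61 under normexp. A_52_P198698, 20711 bases from the first and named in the file by the older name 4930549J05Rik, was −4.64, −4.55 and −6.97 in MR 4-25 and −5.11, −4.15 and −3.37 in Neo. It was dim too, with intensities of 4.15 to 39.0 in MR 4-25 and 28.5 to 88.9 in Neo. Those groups overlapped, and the difference of −1.18 ± 0.82 rested on MR 4-25 3, whose value was a surrogate. Without MR 4-25 3 the difference was −0.38. A_51_P152892, which the array's description ties to Cd247, lies 8977 bases from the first probe on the opposite strand. It was 0.98, 0.72 and 0.98 in MR 4-25 and 0.94, 0.75 and 1.24 in Neo, a difference of −0.08 ± 0.19. The signal of this minus-strand probe thus overlapped between the lines, in which it was unlike the plus-strand probe before it.

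**Figure D2:**
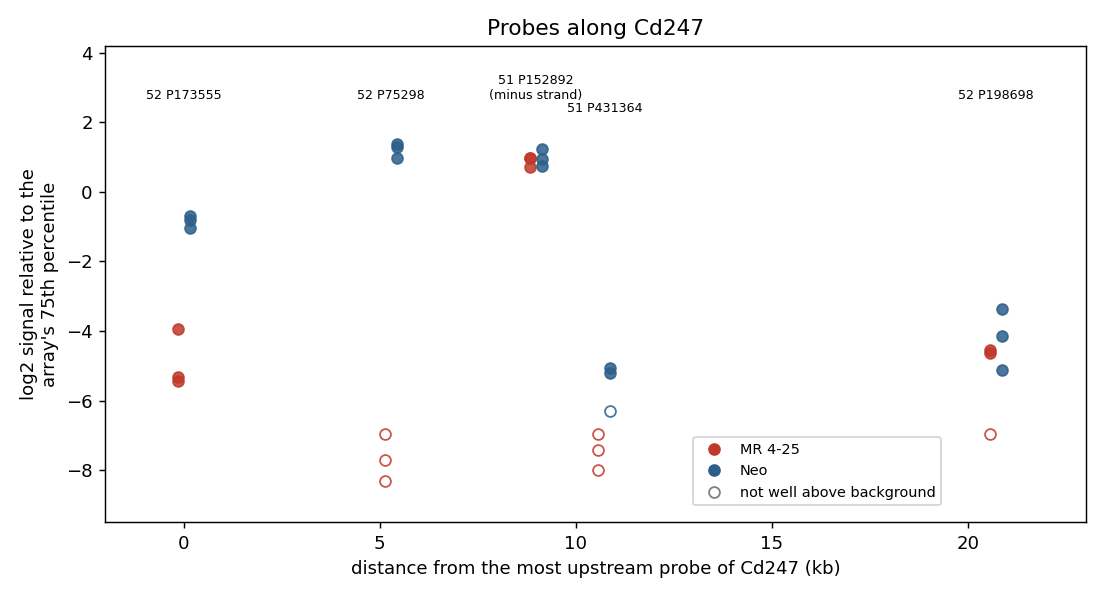
Log2 signal relative to the array's 75th percentile (vertical axis) of the 5 Cd247 probes against the distance in kb from the most upstream probe (horizontal axis); each point is an array, MR 4-25 in red at the left and Neo in blue at the right of each probe, open where not well above background. The lines part at the probes at 0 and 5.288 kb and overlap at the minus-strand probe at 8.977 kb.

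Trat1, the adaptor that binds the receptor, was lower in MR 4-25 on its brighter probe. A_52_P188042 (mm7 chr16:48495568-48495627, minus strand) was −3.69, −4.51 and −3.84 in MR 4-25 and −0.52, −0.50 and 0.23 in Neo. The intensities were 67.7, 40.0 and 36.4 in MR 4-25 and 691, 596 and 1077 in Neo. The groups were separated by a gap of 3.17, and the difference was −3.75 ± 0.33, or 13.5-fold lower in MR 4-25, with −3.59 on slide 1 and −4.07 on slide 2, and it was −2.17 under normexp.

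The second Trat1 probe, A_51_P320930 (mm7 chr16:48492628-48492651, where the file gives a position for only 24 of its bases), did not hold this separation on every array. It was −4.97, −5.57 and −1.40 in MR 4-25 and −1.70, −0.94 and −0.89 in Neo. Its intensities were 27.7, 19.2 and 198 in MR 4-25, and the one on MR 4-25 2 was not well above background. MR 4-25 3 stood within the Neo range while MR 4-25 1 and 2 stood far below it. The difference was −2.80 ± 1.15 over all arrays, −3.95 on slide 1 and −0.50 on slide 2, and −4.09 without MR 4-25 3. On that same array the brighter Trat1 probe was at −3.84, well below its Neo values, so the 2 probes of the gene disagreed on MR 4-25 3.

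Ptcra, the partner of the beta chain in immature thymocytes, was also lower in MR 4-25 but remained measurable. A_51_P243575 (mm7 chr17:44885126-44885186, minus strand) was −1.70, −1.30 and −2.95 in MR 4-25 and 1.00, 0.41 and 0.34 in Neo, with intensities of 269, 369 and 67.2 in MR 4-25 and 1973, 1126 and 1159 in Neo. All 3 MR 4-25 samples lay below all 3 Neo samples. The difference was −2.57 ± 0.48, or 5.93-fold lower in MR 4-25, with −2.21 on slide 1 and −3.29 on slide 2, and it was −1.68 under normexp. Here MR 4-25 3 was the lowest sample of its line, whereas on Cd247 A_52_P173555 it was the highest.

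**Figure D3:**
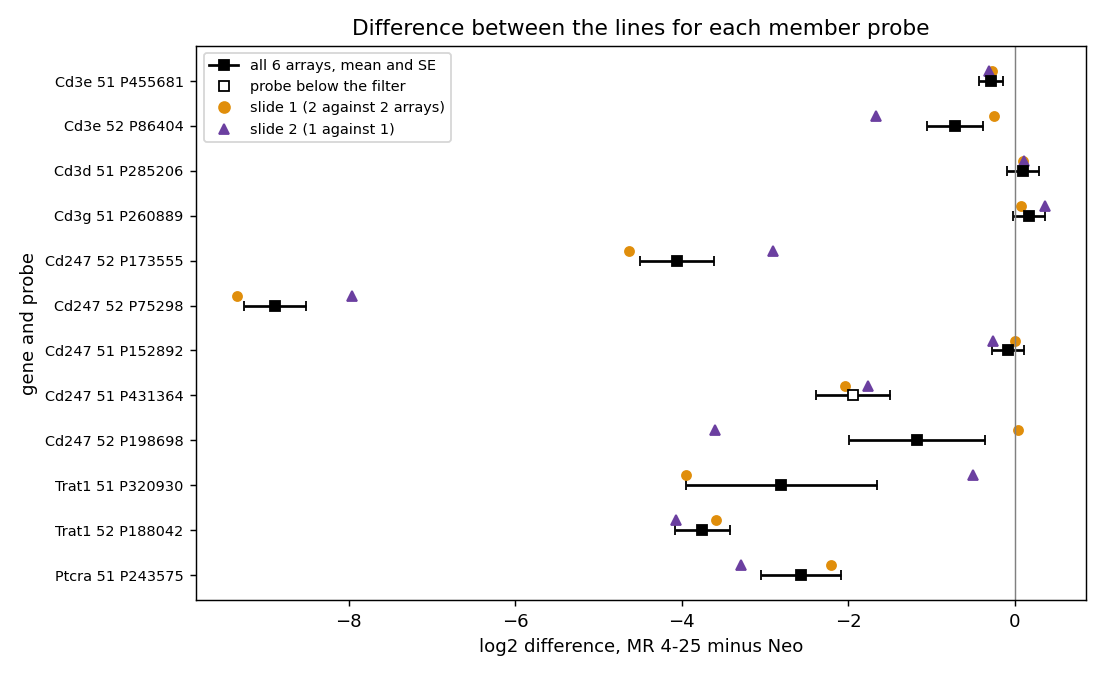
Log2 difference MR 4-25 minus Neo (horizontal axis) for each member probe (vertical axis): squares with bars are the mean and SE over all 6 arrays, circles slide 1 and triangles slide 2, and the open square is the probe that did not enter the fit. The slides lie on the same side of 0 for every probe other than Cd247 A_52_P198698 (0.04 on slide 1) and Cd247 A_51_P152892 (0.01 on slide 1).

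The promoters of the 3 genes that were lower by more than 2-fold are shown so that their sequence can be read beside the values. Each window runs from 250 bases before the RefSeq start to 50 after it, on build GRCm38.p6, with matches in capitals to 5 short patterns searched on both strands: the Ets core AGGAAG, the E box CANNTG, the Runx core TGTGGT, the Gata core AGATAA and the TATA box TATAAA. Cd247 and Trat1 have several RefSeq transcripts (8 and 3) and their window follows 1 listed start. The 6 members matched by symbol.
Cd247 (chr1:165788431-165788730, plus strand): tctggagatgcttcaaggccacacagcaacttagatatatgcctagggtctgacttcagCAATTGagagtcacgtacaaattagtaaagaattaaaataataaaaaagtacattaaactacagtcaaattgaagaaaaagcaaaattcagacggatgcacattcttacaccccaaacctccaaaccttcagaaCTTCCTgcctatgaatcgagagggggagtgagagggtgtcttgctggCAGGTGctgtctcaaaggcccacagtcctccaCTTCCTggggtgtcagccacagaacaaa
Trat1 (chr16:48772013-48772312, minus strand): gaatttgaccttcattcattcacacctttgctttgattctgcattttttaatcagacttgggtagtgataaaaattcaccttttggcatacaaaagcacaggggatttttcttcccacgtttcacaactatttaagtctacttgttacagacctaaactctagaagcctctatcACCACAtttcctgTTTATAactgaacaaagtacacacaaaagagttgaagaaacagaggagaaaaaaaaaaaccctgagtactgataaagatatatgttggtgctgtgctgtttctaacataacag
Ptcra (chr17:46763663-46763962, minus strand): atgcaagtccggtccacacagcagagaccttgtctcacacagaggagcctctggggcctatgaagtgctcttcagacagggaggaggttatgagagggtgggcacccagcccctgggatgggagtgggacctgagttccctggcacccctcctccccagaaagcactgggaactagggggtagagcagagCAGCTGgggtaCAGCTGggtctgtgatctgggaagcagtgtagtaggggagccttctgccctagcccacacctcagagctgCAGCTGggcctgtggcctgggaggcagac

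The 3 windows held different patterns. Cd247 had 2 Ets cores and 2 E boxes, Trat1 had 1 Runx core and 1 TATA box, and Ptcra had 3 E boxes, all with the letters CAGCTG. Among 32851 windows of the same length, 35.4% held an Ets core, 72.3% an E box, 16.8% a Runx core, 11.2% a Gata core and 13.6% a TATA box. The genes that were alike or nearly so in the lines held some of the same patterns: Cd3e had 2 Ets cores and 2 E boxes, as in Cd247, Cd3d had 2 Ets cores and 1 E box, and Cd3g had 4 E boxes and 1 Gata core. A match describes letters only.

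Other genes of the T cell receptor pathway were read from 8 lists, each gene on its brightest probe. The lists held 118 genes, of which 106 were tested by limma with Benjamini-Hochberg adjustment over all 30965 probes at 0.05. Of these, 2 rose, 4 fell and 100 did not pass. Before adjustment 37 of the 106 were under 0.05, a larger share than the 13.5% of all genes. The lists were chosen with earlier results of these data known. Over all 21341 genes 0.731% rose and 0.604% fell, and over all probes 0.694% rose and 0.601% fell. Of the 106, 14 lay wholly higher in MR 4-25 and 32 wholly lower, where all genes gave 11.2% and 13.1%. The median difference of the listed genes was −0.27, against 0.01 over all genes. Samples of the 2 lines on the same slide deviated together, also where their numbers differed. With the replicate number as a block 0 of the 106 passed in either direction (limma, 40 at an unadjusted p under 0.05), so that each of the 6 calls was lost. Leaving out any 1 array other than MR 4-25 3 also left 0 of the calls that fell. With the slide as a block instead, 2 rose and 4 fell, not all of them the same genes. Il2ra, Hcst, Lcp2 and Ptpn6 still passed, and Tox and Ubash3a did not (limma adjusted p = 0.0523 and 0.0607). Where a value is given below with the block, the block is the replicate number.

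The antigen-binding chains themselves, without which CD3 does not normally reach the surface of T cells, did not pass in any of 4 genes tested (median difference 0.02, 0 under 0.05 before adjustment). The brightest probe that the file names Tcrb-V13 was 7.31, 6.83 and 7.63 in MR 4-25 and 7.29, 7.26 and 7.17 in Neo, a difference of 0.01 (limma adjusted p = 0.983). The brightest of 3 Tcra probes differed by 0.02 (adjusted p = 0.987), and another, A_52_P480620, by −1.97 (adjusted p = 0.170), with all MR 4-25 values below all Neo values. Tcrb-J differed by 0.57 (adjusted p = 0.400). Tcrg differed by −1.26 (adjusted p = 0.695), where MR 4-25 3 alone was low.

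Among the 24 kinases, phosphatases and adaptors that act next to the receptor, 3 fell and 21 did not pass, and their median was −0.49. Before adjustment 13 were under 0.05, and 15 lay wholly lower in MR 4-25, where all genes gave 13.5% and 13.1%. Lcp2, the cytosolic adaptor SLP-76 that Zap70 phosphorylates, was −0.46, −0.69 and −0.90 in MR 4-25 and 1.55, 1.39 and 1.63 in Neo. It fell 4.61-fold, a log2 difference of −2.20 ± 0.18 (SE; limma adjusted p = 0.0127, and 0.103 with the replicate block). Ubash3a, a phosphatase-related protein that dampens receptor signalling, fell 3.60-fold (adjusted p = 0.0478, and 0.173 with the block). Ptpn6, the phosphatase SHP-1, fell 3.32-fold on its brightest probe (adjusted p = 0.0197, and 0.109 with the block), while its other 2 probes differed by −0.39 and 0.59 and did not pass. Lck, the kinase that phosphorylates the ITAMs, was at 5.32 ± 0.29 in MR 4-25 and 5.83 ± 0.07 in Neo (SD, n = 3 each; adjusted p = 0.341). Zap70, which binds them, was at 3.64 ± 0.27 in MR 4-25 and 3.79 ± 0.07 in Neo (adjusted p = 0.774).

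Of the 6 transmembrane adaptor proteins, the class to which Trat1 belongs, 0 passed, with a median of −0.44 and 3 under 0.05 before adjustment. Over all genes 13.5% were under 0.05 before adjustment. Lat, the hub to which Lcp2 is recruited, was 4.31, 4.55 and 4.49 in MR 4-25 and 5.23, 5.27 and 5.26 in Neo, a difference of −0.81 ± 0.14 (adjusted p = 0.0856) with no overlap. Of 9 turnover adaptors and ligases, 0 passed (median 0.01, 3 under 0.05 before adjustment). Sla, the adaptor SLAP that targets zeta for degradation in thymocytes, was −5.30, −5.48 and −2.53 in MR 4-25 and −1.71, −1.79 and −1.45 in Neo. That is a difference of −2.78 (adjusted p = 0.232) of −3.64 on slide 1 and −1.08 on slide 2, with a second Sla probe at −0.66 whose groups overlapped.

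Of 9 other ITAM-bearing and related adaptors, 1 rose and 8 did not pass, with a median of 0.04. Before adjustment 3 were under 0.05, where all genes gave 13.5%. Fcer1g, an ITAM chain that can take the place of zeta in some receptors, was −0.38, −0.46 and −2.22 in MR 4-25 and −0.46, −0.41 and −0.42 in Neo (difference −0.59, adjusted p = 0.683); MR 4-25 3 alone was low. Tyrobp, another such chain, was dim, with a difference of 0.71 (adjusted p = 0.730). The gene that rose was Hcst, the adaptor DAP10, which signals without an ITAM: it was 1.27, 1.67 and 1.55 in MR 4-25 and −0.29, 0.05 and −0.17 in Neo, a log2 difference of 1.63 ± 0.19 (SE; adjusted p = 0.0287, and 0.110 with the block).

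Of 15 genes of the pre-T-cell-receptor stage, when Ptcra is used, 1 rose and 14 did not pass, with a median of −0.35. Before adjustment 4 were under 0.05. The one that rose was Il2ra (CD25), an interleukin-2 receptor subunit that marks that stage and also activated T cells. It was 0.80, 0.77 and 1.19 in MR 4-25 and −2.07, −2.31 and −2.21 in Neo, 8.64-fold higher (adjusted p = 0.0064, and 0.0929 with the block), and its other 3 probes were higher too, by 2.26 to 3.46. Of 25 transcription factors of T cell receptor genes, 1 fell and 24 did not pass, with a median of −0.32. Before adjustment 10 were under 0.05, and 12 lay wholly lower in MR 4-25, where all genes gave 13.5% and 13.1%. Tox, a nuclear factor of thymocyte development, was −3.13, −4.16 and −3.61 in MR 4-25 and −1.12, −1.49 and −0.74 in Neo (5.73-fold lower, adjusted p = 0.0462, and 0.115 with the block), and a second probe fell by 2.12 (adjusted p = 0.0156), a call also lost with the block. Of 15 coreceptors and costimulatory receptors, 0 passed (median 0.00, 2 under 0.05 before adjustment). Cd4 differed by 0.25 (adjusted p = 0.713), Cd8a by −0.21 (adjusted p = 0.696), and Thy1, a surface marker of mouse T cells, by −0.10 (adjusted p = 0.820).

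**Figure D4:**
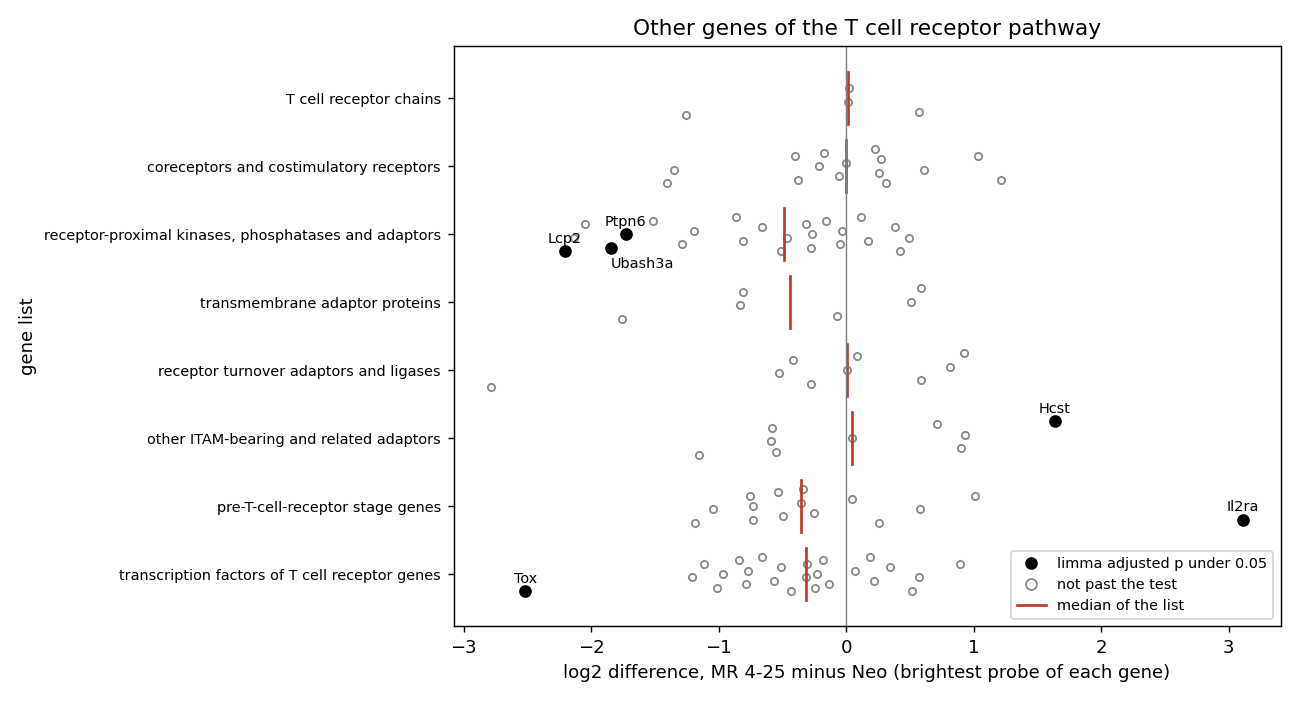
Log2 difference MR 4-25 minus Neo (horizontal axis) for the tested genes of 8 pathway lists (rows), each on its brightest probe; filled points passed limma at an adjusted p of 0.05 and red bars are list medians. The 4 filled points left of 0 are Lcp2, Ubash3a, Ptpn6 and Tox, and the 2 right of 0 are Hcst and Il2ra.

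The genes around the members were counted within 200000 bases on the array's build. Around Cd247, 0 of 5 tested genes passed limma (1 under 0.05 before adjustment), around Trat1 0 of 4 (0 before adjustment) and around Ptcra 0 of 16 (2 before adjustment). Around the CD3 genes 1 of 15 fell (5 before adjustment). Over all 21341 genes, 13.5% were under 0.05 before adjustment. That gene was Jaml, a junctional adhesion molecule of leukocytes (mm7 chr9:45041748-45041807), at −2.01 ± 0.28 in MR 4-25 and −0.52 ± 0.16 in Neo (SD, n = 3 each; adjusted p = 0.0462, and 0.167 with the replicate block).

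For the brightest probe of each member, with the opposite-strand Cd247 probe set aside, the 3 genes of most similar course over the 6 arrays, by Pearson's r, are given as a description; the 6 points share 2 lines and 2 slides. They were Atp6v1d, Mcrs1 and Cacna1d for Cd247, Lima1, Ostm1 and Cnnm1 for Trat1, and Hdac7, Adgrg1 and Sf3a3 for Ptcra. For the CD3 chains they were Gpd1l, Dus3l and Casp2 for Cd3e, Micos13, D430042O09Rik and Olfr491 for Cd3d, and Osgep, Fbh1 and Eif4ebp1 for Cd3g. All 18 had an r of at least 0.982. A like course is not a like size: Atp6v1d, with r = 0.999 to Cd247, differed by −0.28 between the lines, against −4.06 for Cd247, while Cacna1d, a calcium channel subunit, differed by −2.74 and Adgrg1, an adhesion receptor, by −2.55.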

How the data were processed

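Total RNA of 6 samples was measured on single-dye arrays, 1 per sample. The authors deposited scanner intensity values; per the file headers the software was Agilent Feature Extraction 9.5.3.1, given as 9.5 in the submitters' processing notes, and the processed signal is background-corrected and not scaled between arrays. A deposited value table held the same values (largest relative difference 0). Probe positions are on mm7, per the files; RefSeq promoters and gene positions are on GRCm38.p6.

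Control spots were left out, spots marked as outliers masked, and spots of a probe averaged as log2; 34 probes with every spot masked on an array were dropped. Each array was scaled by its own 75th percentile on the log2 scale, and a probe was kept (30965 were) if at least 3 of the 6 arrays had it well above background. Lines were compared as MR 4-25 minus Neo with limma 3.58.1 (R 4.3.3), adjusted over all kept probes. SEs of members come from that fit, and for the Cd247 probe not kept from a fit of all probes. Members, lists and tests were chosen with earlier results of these data known. Named genes were every member probe, in each list up to 3 genes past the test with the largest difference plus the largest of opposite sign, genes past it within 200000 bases of a member, the 3 nearest in course and a fixed set.

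After the mean of the line was removed, same-numbered samples correlated at 0.29, 0.21 and 0.55 across probes. Each was over 0.1, so the numbers were taken as pairs and the blocked values are given. Crossed samples of slide 1 correlated more closely than the same-numbered samples of that slide, at 0.36 and 0.41. The correlations thus follow the slide and do not show that the numbers mark pairs, so results with the slide as a block are given too. In 10 simulations of this comparison with 200 of 30965 probes changed, recovery was 1.49% for 2-fold changes, 37.9% for 4-fold and 64.7% for 16-fold, with 6.12% false among the calls made. The simulated noise was independent between arrays, unlike these samples, so these shares need not hold for the calls here. Alternatives were other background corrections (normexp with an offset of 50), scalings, filters, tests, blocks, slide 1 alone and leaving out each array. The number of arrays limits the precision.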

Additional observations from a re-analysis of the deposited data

How the results depend on the processing

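Over all probes, 215 were higher and 186 lower in MR 4-25. Under normexp these were 65 and 25, under normexp with quantile normalization 432 and 379, with no filter 112 and 112, with probes above background on all 6 arrays 401 and 350, with an intensity trend and robust fit 483 and 495, with array quality weights 1340 and 1651, on slide 1 alone 85 and 87, and with the mean over probes of a gene 128 and 106; the brightest probe per gene gave 119 lower. With the replicate block, which takes equal numbers as pairs, 1 was higher and 0 lower (limma, 4296 at an unadjusted p under 0.05). With the slide as a block 241 were higher and 239 lower. Leaving out 1 array gave 4 to 128 higher and 2 to 180 lower, the highest of both without MR 4-25 3 and the lowest without Neo 2. The share of calls that were higher was 53.6%, and 72.2% under normexp, 44.8% with weights, and 33.3% (without MR 4-25 1) to 66.7% (without Neo 2) with 1 array left out. Of the pathway lists, 2 genes rose and 4 fell. These were 1 and 1 under normexp, 1 and 2 with no filter, 4 and 11 with all 6 arrays, 4 and 14 with the trend, 6 and 24 with weights, 1 and 1 on slide 1 alone and 0 and 0 with the replicate block; 10 fell under normexp with quantile normalization, 2 under median scaling and 2 with the mean over probes. Leaving out 1 array gave 0 to 1 higher and 0 to 4 lower. Il2ra passed in 10 of 15 alternatives, Lcp2 and Ptpn6 in 8, Hcst in 6, Jaml in 5, Tox in 4 and Ubash3a in 3. Of member probes, quantile normalization put 1 wholly higher, and leaving out 1 array 0 to 1. The 6 wholly lower became 4 under normexp, 5 under normexp with quantile normalization, 7 on slide 1 alone and 6 to 8 with 1 array left out. Across the other scalings the difference ran from −4.10 to −1.86 for Cd247 A_52_P173555, −3.76 to −2.17 for Trat1 A_52_P188042 and −2.58 to −1.68 for Ptcra, the smallest sizes under normexp. For Cd247 A_52_P75298, a bound in MR 4-25, it ran from −9.10 to −4.14, the smallest size also under normexp. The offset of 50 added there draws dim signals together, so these smallest sizes depend on it. The signs of Cd3d, Cd3g, the second Cd3e probe and Cd247 A_51_P431364 and A_52_P198698 turned under normexp, that of Cd247 A_51_P152892 under normexp with quantile normalization, and those of Cd3d and A_51_P152892 also when some single arrays were left out. The causes were not tested. The value table was not run, since it holds the same values.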
